A study of Mus musculus with 12 samples.

Results

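A set of 10 genes with roles in the fusion of myoblasts was followed in the RNA-seq tables of C2C12 cells. They were the fusogens Mymk and Mymx, the cadherins Cdh15 and Cdh2, the ferlins Myof and Dysf, the adhesion receptors Adgrb1 and Adgrb3, the muscle caveolin Cav3 and the membrane protein Tmem182. They were chosen by name, as rows of the 3 deposited tables with that gene name, and the set was proposed with earlier results of these data known. Of the 10 genes, 7 had a row in at least 1 table and 3 (Myof, Adgrb1 and Adgrb3) had none. Of the 21951 protein-coding genes of the annotation, 9254 (42.2%) had a row in at least 1 table, and the tables together held 10289 genes of all types. C2C12 cells are mouse myoblasts that divide in growth medium (GM) and become myotubes once differentiation medium replaces it. The RNA-seq libraries came from stable lines made with lentivirus and selected with puromycin: GFP-overexpressing cells (the negative control) in GM, the same line on day 4 of differentiation (D4), METTL3-overexpressing cells in GM and the corresponding METTL14 line in GM. Each of these 4 groups had 2 libraries. METTL3 and METTL14 form the enzyme core that writes m6A on RNA. The METTL14 libraries carry D4 as their time point label but D0 in their titles, and the titles were followed. The 4 MeRIP-seq libraries were not analysed here.

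Myoblasts fuse into multinucleated myotubes in steps of recognition, adhesion and membrane merger. Cadherins and other adhesion proteins hold neighboring cells together, and the muscle proteins Myomaker (Mymk) and Myomixer (Mymx) then carry out the merger of the lipid bilayers. Ferlins are calcium-binding membrane proteins of vesicle fusion and membrane repair, and the BAI receptors Adgrb1 and Adgrb3 act upstream of the ELMO and DOCK proteins that activate Rac1.

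Each table belongs to 1 comparison of the study with the GFP-overexpressing cells in GM: the D4 table, the METTL3 table and the METTL14 table. A table holds a row only for a gene that the authors kept at an FDR of at most 0.05, and 1 measurement for it outside their own comparison, the mean normalized count. This is the read count per gene divided by the size factor of the library and averaged by the authors over libraries. It has no value per library, so no error could be given, no groups could be set against each other, and the direction of a change is not read here. A row says that the authors' limit was passed, and its absence says neither that a gene was silent nor that it was unaltered. The tables held 9823 rows for D4, 1754 for METTL3 and 1102 for METTL14. The mean was the same in every table with the gene (largest relative difference 4.77e-10), so it describes the libraries together and not the pair of groups of the table. The targeted genes were each present in the table of their own line, Mettl3 in the METTL3 table with a mean normalized count of 5827 and Mettl14 in the METTL14 table with 6250. All 5 markers of the muscle lineage looked at had a row somewhere, against 42.2% of protein-coding genes. Myf5, Myog, Des and Myh3 had a row for D4, while Myod1 had rows for METTL3 and METTL14 only. Their mean normalized counts ran from 593 for Myf5 to 40372 for the embryonic myosin gene Myh3. Of 4 markers of endothelial, blood, fat and neural cells (Pecam1, Ptprc, Adipoq and Pax6), 0 had a row, which leaves their level unknown. Because a row reports a passed limit and not expression, these counts of rows do not establish the identity of the cells.

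The D4 table, which addresses the change from myoblast to myotube, held 7 of the 10 fusion genes: Mymk, Mymx, Cdh15, Cdh2, Dysf, Cav3 and Tmem182. As background, 40.1% of the 21951 protein-coding genes of the annotation had a row there, a base that includes genes not expressed in muscle. The METTL3 table held 2 of the 10, Cdh15 and Dysf, against 7.80% of protein-coding genes. The METTL14 table held 1 of the 10, Cdh15, against 4.91%. Of the 10, M-cadherin (Cdh15) was the only gene with a row in all 3 tables. N-cadherin (Cdh2), the broadly expressed cadherin of the pair, had a row for D4 alone. The share of all genes with a row in all 3 tables was not computed, and the cadherins were not compared by a test. The fusogens Mymk and Mymx had a row for D4 and none in the METTL3 or METTL14 table. Because the 10 genes were named with earlier results known, these counts are a description of the tables, and they were not tested.

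**Figure D1:**
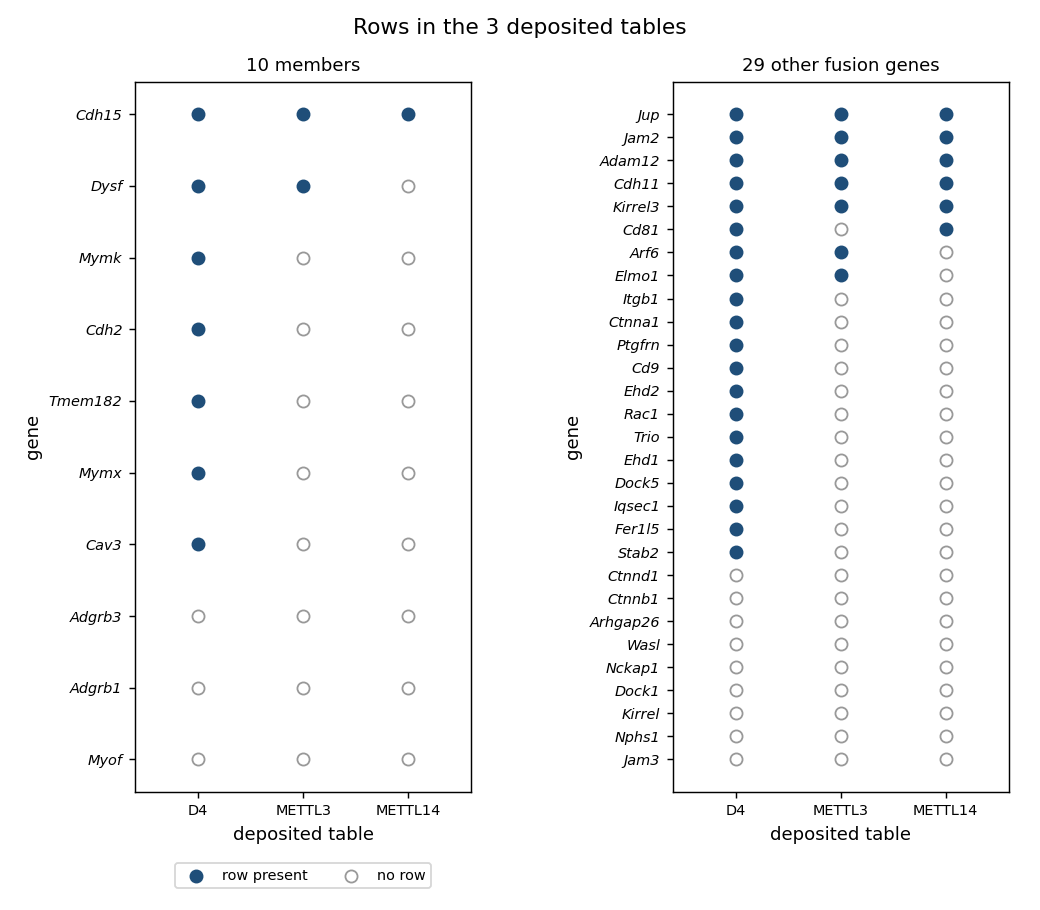
Presence of a row (filled circle) or its absence (open circle) in the D4, METTL3 and METTL14 tables, with the 10 fusion genes on the left and 29 other genes of myoblast fusion on the right. Cdh15 is the 1 gene of the 10 with a row in all 3 tables, and Adgrb1, Adgrb3 and Myof have none.

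Among the fusogens, Mymk (ENSMUSG00000009214, minus strand of chromosome 2, 27061636 to 27072179 on GRCm38) had a mean normalized count of 7939, the highest of the 7 genes. Only 184 of the 10289 genes with a row in any table lay above it (percentile 98.2). Mymx (ENSMUSG00000079471, minus strand of chromosome 17, 45600971 to 45602102), which encodes a microprotein, had a mean normalized count of 565 (percentile 55.7). The count of Mymk was 14.05 times that of Mymx. The number of reads grows with the length of a transcript, so counts and percentiles, which are not divided by length, do not order the genes by transcript abundance, and values per kb are given beside them. Per kb of the longest transcript, of 1382 bases for Mymk and 804 for Mymx, the means were 5745 and 703 counts per kb and the ratio was 8.17. A mean over libraries of GM and D4 does not show in which stage these reads lay.

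Among the cadherins, Cdh15 (ENSMUSG00000031962, plus strand of chromosome 8, 122847966 to 122867397) had a mean normalized count of 5221 (percentile 96.6). Cdh2 (ENSMUSG00000024304, minus strand of chromosome 18, 16588877 to 16809246) had a mean normalized count of 3374 (percentile 93.4). Both lay far above the median of the genes with a row. Per kb of the longest transcript the means were 1606 counts per kb for Cdh15 and 697 for Cdh2, and the ratio rose from 1.55 for the counts to 2.30. No test of this difference was possible without values per library.

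Dysf (ENSMUSG00000033788, plus strand of chromosome 6, 84008590 to 84211060), the gene of the membrane repair protein dysferlin, had a mean normalized count of 680 (percentile 61.0). Its longest transcript has 6803 bases, and its level per kb was 99.9 counts per kb, so a gene with more counts than Mymx lay well below it per kb. Of the 8328 exon bases of Dysf, 352 also belong to the antisense gene Gm15475 and 105 to the antisense gene Gm33024. Whether the counting used strand is not given in the sources used here, and reads in these bases cannot be assigned with certainty. Myof (ENSMUSG00000048612, minus strand of chromosome 19, 37899036 to 38043577), which encodes the related ferlin myoferlin of myoblasts, had no row and so no value.

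Tmem182 (ENSMUSG00000079588, plus strand of chromosome 1, 40805601 to 40856887), which encodes a muscle membrane protein known as an inhibitor of fusion, had a mean normalized count of 2684 (percentile 91.04) and 988 counts per kb of its 2716 base transcript. Cav3 (ENSMUSG00000062694, plus strand of chromosome 6, 112459505 to 112472872), which encodes the caveolin of muscle cell membranes, had the lowest mean of the 7 genes, at 101 normalized counts (percentile 24.6) and 87.0 counts per kb. The count of Mymk was 78.9 times that of Cav3, and per kb 66.1 times. The receptor genes Adgrb1 (ENSMUSG00000034730, plus strand of chromosome 15, 74516195 to 74589465) and Adgrb3 (ENSMUSG00000033569, minus strand of chromosome 1, 25067476 to 25829707) had no row and no value.

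**Figure D2:**
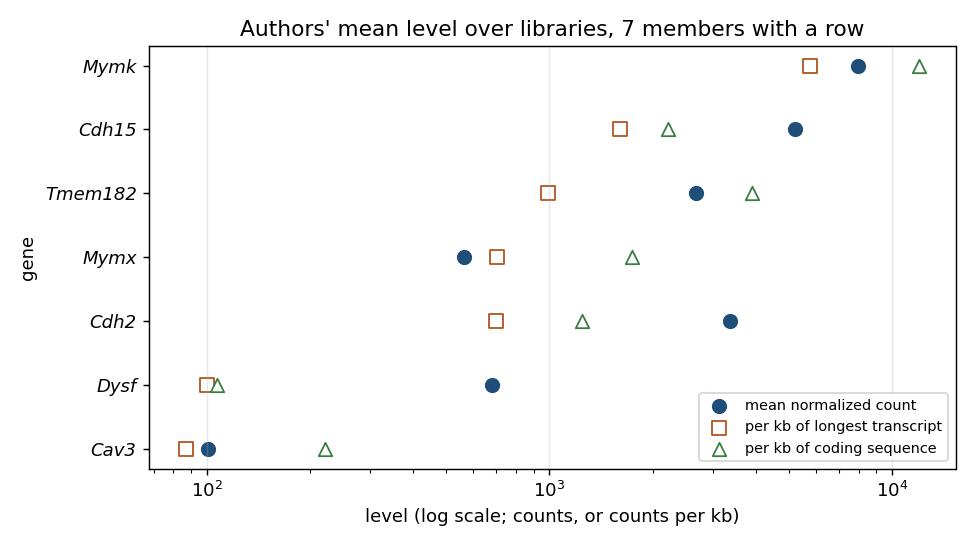
The authors' mean normalized count over libraries (filled circles), the same per kb of the longest transcript (squares) and per kb of coding sequence (triangles) for the 7 genes with a row, on a log axis in counts or counts per kb. Mymk lies highest on each scale, and Cav3 and Dysf lie lowest per kb. There are no error bars because the tables hold 1 mean per gene.

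In counts per kb of the longest transcript the order of the levels was Mymk, Cdh15, Tmem182, Mymx, Cdh2, Dysf and Cav3. The values of Mymx and Cdh2, 703 and 697 counts per kb, were nearly equal, and those of Dysf and Cav3, 99.9 and 87.0, were close. With coding sequence as the length, Mymx and Cdh2 lay further apart, at 1745 and 1241 counts per kb. Which neighbors in the order differ beyond the spread between libraries cannot be told from the tables. All 7 genes had a row in the D4 table, and the mean pools libraries of GM and D4, so the order within either stage may differ from this one. The GM libraries include the METTL3 and METTL14 lines, and only the GFP line was sampled at D4. If all groups were averaged alike, GM weighs more in the mean. Per kb of coding sequence Tmem182, with 3907 counts per kb, moved above Cdh15, with 2220, and Cav3, with 222, above Dysf, with 107. By counts not divided by length, against all genes with a row, whose median was 458 normalized counts (quartiles 103 and 1143), Mymk, Cdh15, Cdh2 and Tmem182 lay above the upper quartile, Dysf and Mymx between the median and the upper quartile, and Cav3 below the lower quartile.

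**Figure D3:**
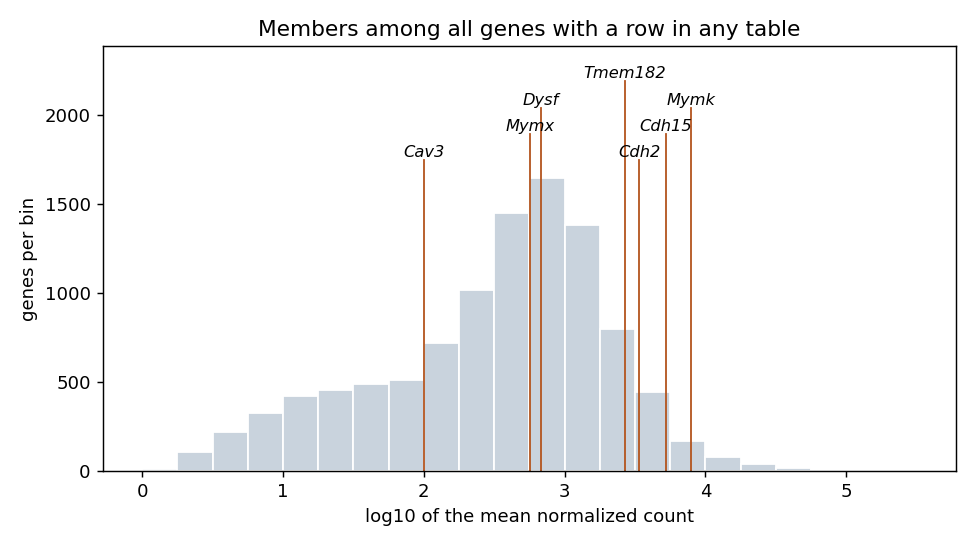
Histogram of the log10 mean normalized count of the 10289 genes with a row in any table, with the 7 fusion genes marked by vertical lines. Mymk, Cdh15, Cdh2 and Tmem182 lie in the right tail, and Cav3 lies at 101 counts in the left part.

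Of 29 other genes of myoblast fusion, taken as a list of adhesion proteins, immunoglobulin receptors, tetraspanins, catenins and regulators of actin, 20 had a row in the D4 table, 7 in the METTL3 table and 6 in the METTL14 table, and 9 had none. The shares of all protein-coding genes with a row were 40.1%, 7.80% and 4.91%. With a mean of at least 100 normalized counts, 17, 6 and 6 of the 29 genes had a row. The share of all protein-coding genes at that limit was not computed, so these filtered counts have no base to be set against. The list was not tested, and its levels are counts not divided by length. Their mean normalized counts ran from 10.4 for Stab2, a phosphatidylserine receptor, to 26858 for the integrin subunit gene Itgb1, with a median of 1953. The genes of the list with a row in all 3 tables were Jam2, Kirrel3, Cdh11, Adam12 and Jup, and the share of all genes with such rows was not computed. Jup encodes plakoglobin, a catenin that binds cadherin tails, and had a mean normalized count of 2030. Jam2, the gene of a junctional adhesion molecule, had 1876, and the metalloprotease gene Adam12 had 555. Cdh11, another cadherin of mesenchymal cells, had 350, and the immunoglobulin receptor gene Kirrel3 had 142. Of the proteins downstream of the BAI receptors, Elmo1 (23.4 normalized counts) had a row in the D4 and METTL3 tables, Dock5 (1667) and Rac1 (3511) had a row for D4, and Dock1 had no row. The ferlin gene Fer1l5 had 84.3 normalized counts and a row for D4. The tetraspanin genes Cd9 and Cd81, which restrain fusion, had 4570 and 4090 normalized counts, and Cd81 was the 1 gene of the list in the D4 and METTL14 tables but not in the METTL3 table.

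Promoter windows of RefSeq ran from 250 bases before to 50 after the start of a gene on GRCm38.p6. Those of 6 of the 10 genes were examined (Cdh15, Tmem182, Cav3, Dysf, Myof and Adgrb3). The windows of these 6 genes were searched on both strands for the E-box CANNTG, the kind of site bound by MyoD and myogenin. Of all 32851 windows, 72.3% contain it at least once. Mymk, Mymx, Cdh2 and Adgrb1 were not part of the search, so nothing is said of their E-boxes. The windows of Cdh15, Tmem182 and Cav3 are shown as examples among the genes with a value in the tables, with each E-box in capitals. Those of Dysf, which also has a value, held fewer E-boxes and are not shown. The windows shown lie at chr8:122848124-122848423, chr1:40805351-40805650 and chr6:112459255-112459554, all on the plus strand.
Cdh15: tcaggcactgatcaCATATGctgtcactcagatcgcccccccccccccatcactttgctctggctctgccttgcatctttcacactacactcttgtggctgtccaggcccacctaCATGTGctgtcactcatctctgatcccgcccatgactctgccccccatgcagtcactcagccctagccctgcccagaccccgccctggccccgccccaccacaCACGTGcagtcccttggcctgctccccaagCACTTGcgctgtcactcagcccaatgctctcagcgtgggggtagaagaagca
Tmem182: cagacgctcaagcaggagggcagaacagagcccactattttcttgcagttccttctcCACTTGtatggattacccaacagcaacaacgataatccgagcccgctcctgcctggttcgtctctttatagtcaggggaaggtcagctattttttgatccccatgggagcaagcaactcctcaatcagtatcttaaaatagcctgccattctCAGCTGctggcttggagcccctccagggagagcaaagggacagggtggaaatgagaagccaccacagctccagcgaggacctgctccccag
Cav3: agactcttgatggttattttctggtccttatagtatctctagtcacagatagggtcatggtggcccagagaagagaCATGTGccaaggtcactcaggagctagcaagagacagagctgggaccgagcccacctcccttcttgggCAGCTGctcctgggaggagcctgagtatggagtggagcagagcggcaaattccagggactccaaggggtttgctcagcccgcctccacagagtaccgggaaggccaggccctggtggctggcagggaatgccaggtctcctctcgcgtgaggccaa

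The window of Cdh15 held 4 E-boxes, and 17.6% of all windows hold 3 or more. The windows of Tmem182 and Cav3 held 2 each, of which 1 in each was CAGCTG, the form MyoD prefers and which 16.3% of all windows contain. The window of Cdh15 held 0 of that form. The form CACCTG, on either strand, is in 20.2% of all windows, and the windows of Cdh15, Tmem182 and Cav3 held 0. The start of Cdh15 in GENCODE lies upstream of the window taken from RefSeq. The windows of Myof and the first start of Dysf held 0, that of the other start of Dysf 1 and that of Adgrb3 2. These matches describe letters, and binding was not measured.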

How the data were processed

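RNA was sequenced from 8 libraries of C2C12 cells in 4 groups. Alignment by the authors was to GRCm38 with hisat2, gene counts came from featureCounts with Ensembl genes, and groups were compared with DESeq2. The versions of these programs are not given in the sources used here. Each of the 3 deposited tables gives a mean normalized count per gene, a signal made from the counts divided by size factors and averaged over libraries by the authors. The number of libraries averaged is not stated, and the tables hold no depth or value per library. The other columns hold the results of the authors' own comparisons (log2 fold change, standard error, Wald statistic, p-value and adjusted p-value) and were not used, and an unheaded value in 2 tables was not used. No test was therefore made.

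Rows were matched by gene name, and the identifiers were checked against GENCODE M21 (GRCm38), which gave positions, transcript and coding lengths and overlaps of exons. It is another release than the one the authors counted on. The percentile of a gene is the share of genes with a row in any table that have a lower mean. Genes with an equal mean, the gene itself included, count in part. The background is the share of protein-coding GENCODE genes with a row. Promoter windows were read from RefSeq (GRCm38.p6), and the motif search was checked on a made-up sequence. A planned comparison of protein sequences was not made. All 10 genes are named, and others come from a list. The members and lists were chosen with earlier results of these data known. Calculations used Python 3.11.15 with pandas 2.3.3 and NumPy 2.4.6, and plots matplotlib 3.10.9. Alternatives were other lengths, other sets of genes for the percentile, and limits on the mean count.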

Additional observations from a re-analysis of the deposited data

How the results depend on the processing

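No paired analysis was possible because the tables hold 1 mean per gene and no value per library, and for the same reason no replicate could be left out and no other normalization or test was run. The counts of the 10 fusion genes per table (7 for D4, 2 for METTL3, 1 for METTL14) were the same when rows under a mean of 10 or of 100 normalized counts were left out. This had to be so, because the lowest mean of the genes with a row, that of Cav3, was 100.6, just above the higher limit. The mean count of Cdh15 and Dysf was the same in each table with a row. The rank by level changed for 4 of the 7 genes without division by length and for 4 per kb of coding sequence. With the union of exons, an alternative chosen after seeing the data, it changed for 2, Dysf and Cav3, which changed places. Mymk ranked first in all of these. The percentile moved by more than 5 points for Cav3, from 24.6 to 18.0 among protein-coding genes and to 19.5 with a mean count of at least 10, and for Dysf, from 61.0 to 53.2 within the METTL3 table.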
